A study of Mus musculus with 4 samples.

Results

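The 10 genes described here, which serve collagen cross-linking and processing, were followed through RNA-Seq libraries of type 2 innate lymphoid cells (ILC2s) sorted from mouse lungs. They are the lysyl oxidases *Lox*, *Loxl1*, *Loxl2* and *Loxl3*, the lysyl hydroxylases *Plod1* and *Plod2*, the prolyl 4-hydroxylase subunits *P4ha1* and *P4ha2*, the collagen chaperone *Serpinh1* and the procollagen proteinase enhancer *Pcolce*. They were taken by gene symbol, without use of their values, and all 10 were found among the 49315 genes of the count table and passed the filter on low values. In all groups the sort took Lineage- cells positive for Thy1.2, ICOS and T1/ST2, and a culture with IL-2 came before the RNA was extracted. The 4 groups were WT mice given PBS (PBS-WT) or bleomycin (BLEO-WT), and *Hps1-/-* mice given PBS (PBS-HPS1) or bleomycin (BLEO-HPS1), each with 1 library. Bleomycin is a DNA-damaging drug used to cause lung fibrosis. A ratio of libraries is written with a slash, so that BLEO-HPS1/BLEO-WT is the bleomycin-treated *Hps1-/-* library over the bleomycin-treated WT library. Where 4 values follow each other without names, they stand in library order, which is PBS-WT, PBS-HPS1, BLEO-WT, BLEO-HPS1. WT mice were C57BL/6, and *Hps1-/-* mice, a model of Hermansky-Pudlak syndrome, were congenic on that strain. The sample labels give no age, bleomycin dose or number of mice for a library.

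Collagen chains are modified while they are still being made in the endoplasmic reticulum. Prolyl 4-hydroxylases add the hydroxyl groups that hold the triple helix together at body temperature, lysyl hydroxylases prepare lysines for glycosylation and cross-linking, and the chaperone HSP47, encoded by *Serpinh1*, binds the folded helix. Outside the cell, the propeptides are cut off and lysyl oxidases oxidise lysines so that neighbouring molecules become covalently cross-linked. In the lung several of these proteins are made largely by fibroblasts and related mesenchymal cells, and cross-linked collagen is a hallmark of fibrotic tissue.

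The libraries held 72513619 to 87638154 reads, and 3 reads, the smallest number treated as detected, correspond to 0.0303 to 0.0475 CPM, the read counts scaled to a common library size with edgeR's TMM factors. PBS-WT came from 22405 sequenced cells, PBS-HPS1 from 38873, BLEO-WT from 84166 and BLEO-HPS1 from 128647. *Hps1*, the gene disrupted in the mutant, was counted at 2989, 1647, 3795 and 1347 reads in that order, so its reads were lower in the *Hps1-/-* libraries but not absent, and the counts do not show which part of the transcript they come from. Among ILC2 markers, 13 of 14 were in the table and each had reads in every library, with a summed CPM of 917, 813, 1167 and 1199.5 in library order. These sums hold large parts from *Arg1*, at 8.34, 4.59, 387 and 257 CPM, and *Thy1*, at 306, 206, 224 and 551 CPM. Of the 13, *Rora*, *Il7r*, *Il1rl1* and *Icos* were lowest in BLEO-HPS1, *Il7r* with 179.6, 205, 149 and 76.9 CPM. *Thy1*, *Klrg1*, *Il9r* and *Nmur1* were highest in that library, *Klrg1* with 13.2, 10.5, 17.7 and 35.6 CPM. The BLEO-HPS1/BLEO-WT log2 ratios of *Rora*, *Il7r*, *Il1rl1* and *Icos* were -0.93, -0.96, -0.65 and -0.68. With a loess fit allowing for transcript GC content and length, these ratios were -0.12, -0.33, -0.06 and -0.24. The median ratio of the 13 markers moved from -0.22 to 0.08. Markers of other cells were also present. For the 18 fibroblast markers the summed CPM reached 263 in PBS-WT and 369 in PBS-HPS1, then 358 in BLEO-WT and 1129 in BLEO-HPS1. Smooth muscle and pericyte markers, 10 in all, summed to 35.7, 43.2, 71.3 and 105. The sum was 953, 897, 1029.5 and 1382 for the 10 endothelial markers, for the 10 epithelial markers 1392, 1036, 882 and 636, and for 11 of 12 macrophage markers between 11462 and 22547. None of these markers was at 0 in any library. In bulk RNA, fewer cells of a type and less RNA per cell cannot be told apart.

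Per transcript length, the most abundant of the 10 genes differed between the libraries. In TPM, which divides reads by transcript length and is not TMM-scaled, *P4ha1* led in PBS-WT at 49.2, *Serpinh1* in PBS-HPS1 at 99.0, *Plod1* in BLEO-WT at 68.7 and *Serpinh1* in BLEO-HPS1 at 151. The least abundant were *P4ha2* in PBS-WT at 1.43 TPM, *Loxl3* in PBS-HPS1 at 2.80, *Plod2* in BLEO-WT at 2.02 and *Plod2* in BLEO-HPS1 at 1.42. Within a gene, 8 of the 10 had their highest CPM in BLEO-HPS1 and 9 had their lowest in PBS-WT. With total counts both numbers were 7, since *P4ha2* was then highest in PBS-HPS1, and *Plod2* and *Serpinh1* were no longer lowest in PBS-WT. After TMM scaling the exceptions at the top were *Plod2* and *P4ha1*, whose highest CPM was in PBS-HPS1. The CPM of *Lox*, *Loxl1*, *Loxl3*, *Plod1* and *Pcolce* followed the numbers of sequenced cells, which held for 5 genes after TMM scaling and for 2, *Loxl3* and *Plod1*, with total counts alone. The shares of all genes with these orders are not given here, so these numbers describe the 10 genes only.

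**Figure D1:**
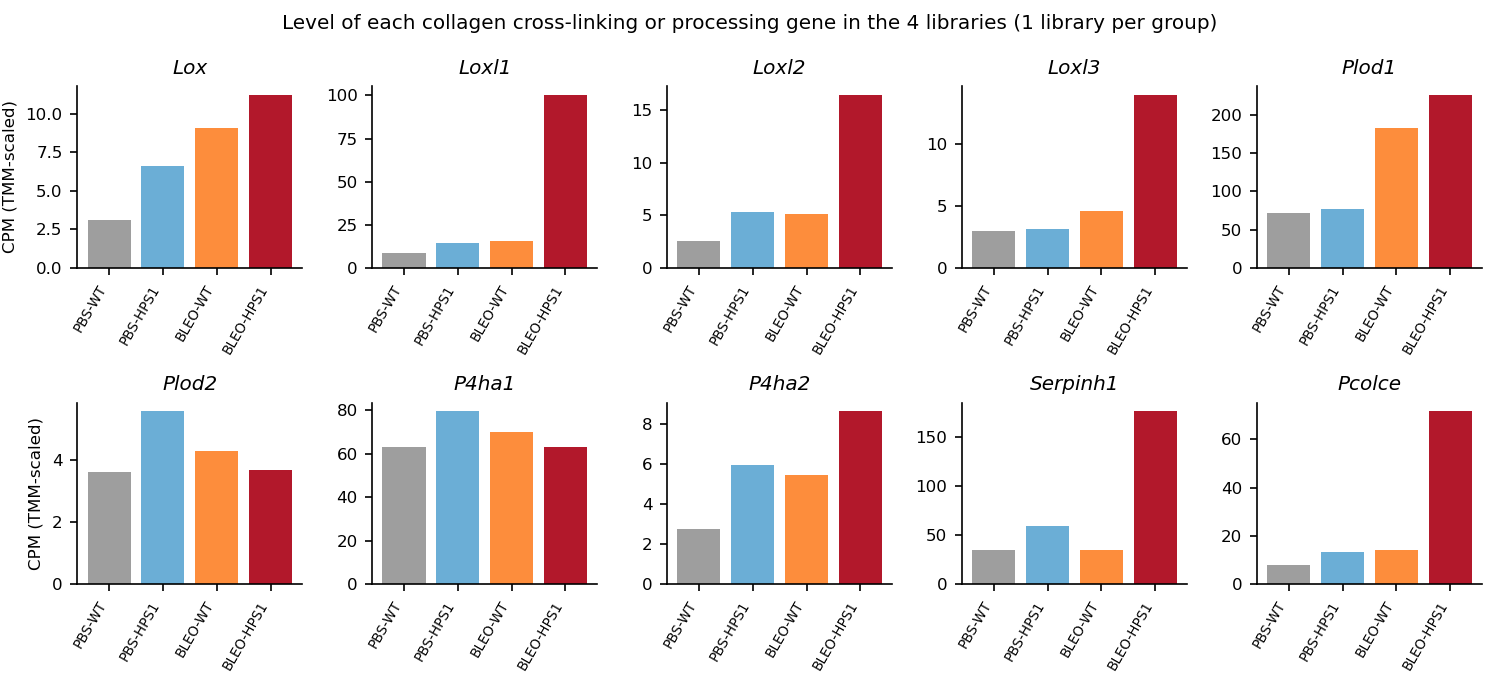
CPM of each of the 10 genes (vertical axis, TMM-scaled, a separate scale from 0 for each gene) in the 4 libraries, with 1 bar per library and no error bars because no group had a replicate. *Loxl1*, *Serpinh1* and *Pcolce* stand out in BLEO-HPS1 at 100.5, 177 and 71.7 CPM, while *Plod2* and *P4ha1* are highest in PBS-HPS1.

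Lysyl oxidases are copper-dependent amine oxidases that start the cross-links of collagen and elastin. *Lox* (ENSMUSG00000024529), the founding member, lies in GRCm38, the build of all positions here, on chromosome 18 from 52516067 to 52529867 (minus strand). It was counted at 240 reads in PBS-WT and 655 in PBS-HPS1, then 712 in BLEO-WT and 711 in BLEO-HPS1, or 3.08, 6.62, 9.08 and 11.3 CPM. PBS-WT was the low library, and the bleomycin libraries of both genotypes held almost the same number of reads. The BLEO-HPS1/BLEO-WT log2 ratio was 0.31, with a 95% exact interval of 0.16 to 0.46 that, like the other intervals here, covers counting error only. Between PBS libraries it was 1.10 (0.89 to 1.32), and bleomycin against PBS gave 1.55 (1.35 to 1.78) in WT and 0.76 (0.61 to 0.92) in *Hps1-/-* mice. The last value was 1.55, past 2-fold, after correction for GC content and transcript length by a loess fit.

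*Loxl1* (ENSMUSG00000032334), known for elastic fibre upkeep, lies on chromosome 9 from 58287738 to 58313186 (minus strand). It was counted at 648, 1442, 1231 and 6347 reads in library order, or 8.31, 14.6, 15.7 and 100.5 CPM. BLEO-HPS1 stood 6.39-fold above BLEO-WT, the largest ratio among the 10 genes, with a log2 ratio of 2.68 (2.59 to 2.77). PBS-HPS1/PBS-WT was 0.81, and bleomycin against PBS gave 0.92 in WT and 2.78 in *Hps1-/-* mice. After TMM scaling PBS-HPS1 and BLEO-WT lay close together, with a log2 difference of 0.11 whose interval, -0.0025 to 0.22, holds 0. With total counts PBS-HPS1 was above BLEO-WT, at 18.6 and 14.0 CPM. *Loxl1* also had the highest transcript GC content of the 10, at 61.0%, which is higher than in 97.3% of the genes compared. After the correction its BLEO-HPS1/BLEO-WT log2 ratio was 2.14.

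*Loxl2* and *Loxl3* belong to the lysyl oxidases with scavenger receptor domains, and *Loxl2* is known for cross-linking basement membrane collagen. *Loxl2* (ENSMUSG00000034205, plus strand of chromosome 14 from 69609068 to 69695834) was counted at 199, 525, 399 and 1042 reads, or 2.55, 5.30, 5.09 and 16.5 CPM in the order above. *Loxl3* (ENSMUSG00000000693, plus strand of chromosome 6 from 83034173 to 83052562) was counted at 233, 315, 360 and 887 reads, or 2.99, 3.18, 4.59 and 14.0 CPM. Both genes were highest in BLEO-HPS1. After TMM scaling PBS-WT was the low library of *Loxl2*, whose PBS-HPS1 and BLEO-WT values did not differ beyond counting error, and both PBS libraries were low for *Loxl3*. With total counts PBS-HPS1 and BLEO-WT were at 6.76 and 4.55 CPM for *Loxl2* and at 4.05 and 4.11 CPM for *Loxl3*. The BLEO-HPS1/BLEO-WT log2 ratio was 1.69 (1.53 to 1.87) for *Loxl2* and 1.61 (1.43 to 1.79) for *Loxl3*. PBS-HPS1/PBS-WT was 1.05 (0.82 to 1.30) for *Loxl2*, and for *Loxl3* it was 0.09 with an interval of -0.16 to 0.34. Bleomycin against PBS gave 0.99 in WT and 1.63 in *Hps1-/-* mice for *Loxl2*, and 0.62 and 2.13 for *Loxl3*. Of the exonic bases of *Loxl3*, 11.6% are shared with *Htra2* on the opposite strand, and since the strand setting of the counting is not given in the sources used here, reads there cannot be assigned with certainty. *Htra2* itself had 2423, 2670, 3332 and 4419 reads.

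Lysyl hydroxylases add the hydroxyl group on collagen lysines that is needed for the stable form of cross-links. *Plod1* (ENSMUSG00000019055), which acts mainly on lysines of the triple helix, lies on chromosome 4 from 147909753 to 147936767 (minus strand) and was counted at 5602, 7623, 14333 and 14321 reads. Its CPM was 71.9, 77.0, 183 and 227 in library order. The bleomycin libraries were both far above the PBS libraries, and the genotypes were close within each treatment. Bleomycin against PBS gave a log2 ratio of 1.35 (1.30 to 1.39) in WT and 1.56 (1.52 to 1.60) in *Hps1-/-* mice, while *Hps1-/-* against WT gave 0.10 (0.05 to 0.15) with PBS and 0.31 (0.28 to 0.34) with bleomycin.

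*Plod2* (ENSMUSG00000032374), which hydroxylates lysines of the telopeptides and is linked to the cross-links of scar collagen, lies on chromosome 9 from 92542223 to 92608428 (plus strand). It had 282 reads in PBS-WT and 552 in PBS-HPS1, then 336 in BLEO-WT and 232 in BLEO-HPS1, or 3.62, 5.57, 4.29 and 3.67 CPM. PBS-HPS1 was the high library, and the other 3 could not all be ordered, since the intervals of BLEO-HPS1/PBS-WT and of BLEO-WT/BLEO-HPS1 hold 0. The BLEO-HPS1/BLEO-WT log2 ratio was -0.22 (-0.47 to 0.02) and turned to 0.33 after correction for GC content and length. PBS-HPS1/PBS-WT was 0.62 (0.41 to 0.84). *Plod2* has the lowest GC content of the 10 genes at 43.0%.

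The prolyl 4-hydroxylase is a tetramer in which *P4ha1* or *P4ha2* provides the catalytic subunit and protein disulfide isomerase, encoded by *P4hb*, the other. *P4ha1* (ENSMUSG00000019916, plus strand of chromosome 10 from 59323296 to 59373304) was counted at 4927, 7891, 5498 and 3989 reads, or 63.2, 79.7, 70.1 and 63.1 CPM. Its log2 ratios lay between -0.34 and 0.33 in the 4 comparisons after TMM scaling, but BLEO-HPS1/PBS-HPS1 was -0.98 with total counts and 0.12 after correction. PBS-HPS1 was highest, and PBS-WT and BLEO-HPS1 did not differ beyond counting error after TMM scaling. With total counts PBS-WT and BLEO-HPS1 were at 67.9 and 51.5 CPM. *P4ha2* (ENSMUSG00000018906, plus strand of chromosome 11 from 54100095 to 54131665) was counted at 217, 588, 428 and 546 reads, or 2.78, 5.94, 5.46 and 8.64 CPM. *P4ha2* was lowest in PBS-WT, and after TMM scaling the order of PBS-HPS1 and BLEO-WT was not resolved (log2 difference 0.12, interval -0.06 to 0.30). With total counts PBS-HPS1 was above BLEO-WT for *P4ha2*, at 7.57 and 4.88 CPM. For BLEO-HPS1/BLEO-WT the log2 ratio was -0.15 (-0.21 to -0.09) for *P4ha1* and 0.66 (0.48 to 0.85) for *P4ha2*, and for PBS-HPS1/PBS-WT it was 0.33 (0.28 to 0.39) and 1.09 (0.87 to 1.32). The BLEO-HPS1/BLEO-WT value of *P4ha1* turned to 0.16 after correction. Bleomycin against PBS gave *P4ha2* a log2 ratio of 0.97 in WT and 0.54 in *Hps1-/-* mice, the latter -0.10 with total counts.

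*Serpinh1* (ENSMUSG00000070436), on chromosome 7 from 99345376 to 99353239 (minus strand), encodes the collagen chaperone HSP47. It was counted at 2702 reads in PBS-WT and 5919 in PBS-HPS1, then 2761 in BLEO-WT and 11156 in BLEO-HPS1, or 34.7, 59.8, 35.2 and 177 CPM. Both *Hps1-/-* libraries stood above both WT libraries, and the WT libraries did not differ beyond counting error, with a log2 ratio of bleomycin to PBS of 0.02 (-0.05 to 0.10) that was -0.24 with total counts and -0.20 after correction. BLEO-HPS1 was 5.01-fold above BLEO-WT (log2 ratio 2.33, 2.27 to 2.39, and 1.81 after correction), and PBS-HPS1 was 1.72-fold above PBS-WT (0.79, 0.72 to 0.85). Against PBS-HPS1, BLEO-HPS1 was at a log2 ratio of 1.56 (1.52 to 1.61), which was 0.73 after correction and 0.92 with total counts, under the 2-fold threshold in both.

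*Pcolce* (ENSMUSG00000029718), whose secreted product speeds the removal of the C-propeptide by BMP1-type proteinases, lies on chromosome 5 from 137605103 to 137613784 (minus strand). It was counted at 619, 1339, 1110 and 4531 reads, or 7.94, 13.5, 14.2 and 71.7 CPM, in library order. As with *Loxl1*, PBS-HPS1 and BLEO-WT did not differ beyond counting error after TMM scaling (log2 difference 0.07, interval -0.05 to 0.18). With total counts PBS-HPS1 was above BLEO-WT, at 17.2 and 12.7 CPM. BLEO-HPS1 was 5.06-fold above BLEO-WT, with a log2 ratio of 2.34 (2.25 to 2.44), and 1.99 after correction. PBS-HPS1/PBS-WT was 0.77, and bleomycin against PBS gave 0.83 in WT and 2.40 in *Hps1-/-* mice.

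Hydroxylase genes are classical targets of the hypoxia-inducible factors, and *Serpinh1* of heat shock factor. RefSeq promoter sequences on GRCm38.p6 were at hand for 5 of the 10 genes, and 3 are shown because their genes took different courses, with *P4ha1* within 2-fold in all comparisons, *Serpinh1* high in the *Hps1-/-* libraries and *Plod1* high in the bleomycin libraries. Each line holds the 250 bases upstream of the RefSeq transcription start, 5′ to 3′ on the strand of the gene, and capitals mark the cores of hypoxia response elements, ACGTG or GCGTG, on either strand. The windows are chr10:59323046-59323295 on the plus strand for *P4ha1*, chr7:99353240-99353489 on the minus strand for *Serpinh1* and chr4:147936777-147937026 on the minus strand for *Plod1*, and no annotated exon lies in them.
P4ha1: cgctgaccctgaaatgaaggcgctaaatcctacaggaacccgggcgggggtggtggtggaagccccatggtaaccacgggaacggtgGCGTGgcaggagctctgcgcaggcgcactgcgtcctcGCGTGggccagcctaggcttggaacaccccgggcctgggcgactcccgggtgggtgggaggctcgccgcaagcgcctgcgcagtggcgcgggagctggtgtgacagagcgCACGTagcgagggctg
Serpinh1: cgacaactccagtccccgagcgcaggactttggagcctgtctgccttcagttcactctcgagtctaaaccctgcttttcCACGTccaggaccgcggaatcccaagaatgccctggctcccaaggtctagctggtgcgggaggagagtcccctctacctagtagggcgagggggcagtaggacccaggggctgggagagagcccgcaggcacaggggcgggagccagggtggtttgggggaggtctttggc
Plod1: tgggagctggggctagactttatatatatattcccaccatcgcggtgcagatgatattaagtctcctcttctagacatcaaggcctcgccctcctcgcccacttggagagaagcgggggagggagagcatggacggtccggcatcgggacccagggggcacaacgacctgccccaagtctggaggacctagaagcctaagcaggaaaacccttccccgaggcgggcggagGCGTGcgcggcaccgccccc
The *P4ha1* window held 3 such cores, the *Serpinh1* window 1 and the *Plod1* window 1, and the *P4ha2* window, not shown, held 3. Either core occurs in 38.6% of 32851 promoter windows of this length, ACGTG in 16.6% and GCGTG in 28.2%, so a match is a description of the letters only. Over 24 hypoxia-inducible genes the median log2 ratio was 0.29 for BLEO-HPS1/BLEO-WT, -0.35 for PBS-HPS1/PBS-WT, 0.50 for BLEO-WT/PBS-WT and 0.80 for BLEO-HPS1/PBS-HPS1, and the first of these turned to -0.03 after correction for GC content and length. *P4ha1* itself was at -0.15, 0.33, 0.15 and -0.34 in the same order. Of the 24 genes, 1 was at least 2-fold higher and 2 were at least 2-fold lower in BLEO-HPS1/BLEO-WT, against 6.72% and 10.3% of all genes compared.

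With bleomycin, 5 of the 10 genes were at least 2-fold higher in *Hps1-/-* than in WT libraries, namely *Loxl1*, *Pcolce*, *Serpinh1*, *Loxl2* and *Loxl3*, and 0 were at least 2-fold lower. Among all 14840 genes compared, 6.72% were at least 2-fold higher and 10.3% lower by as much. The median over the 10 genes was 1.13 on the log2 scale, against -0.04 over all genes compared, and the same 5 genes stayed above 2-fold after correction for GC content and length, at log2 ratios of 1.39 to 2.14. The ratios fell into a high set of 5 at 1.61 to 2.68 and a low set of 5 at -0.22 to 0.66. The low set held both lysyl hydroxylases and both prolyl 4-hydroxylase subunits of the 10 genes, together with *Lox*. GC content nearly followed this split. The 3 genes lowest in GC content, *Plod2*, *Lox* and *P4ha1*, were all in the low set. The genes highest in it, *Loxl1*, *Serpinh1*, *Pcolce* and *Loxl3* at 61.0% to 53.4%, were all in the high set. The exception was *Loxl2* of the high set, at 51.7%, below *Plod1* at 52.7% and *P4ha2* at 52.1%. After correction the low set lay at 0.16 to 0.78, still below the high set. Across 11133 genes this ratio had a Spearman's rho of 0.609 with GC content, while genes are not independent replicates.

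With PBS, 3 of the 10 were at least 2-fold higher in PBS-HPS1 than in PBS-WT, namely *Lox*, *P4ha2* and *Loxl2*, and 0 were at least 2-fold lower, against 2.16% and 3.11% of all genes compared. All 10 ratios were above 0, against 4338 of the 14840 genes compared. The median of the 10 was 0.78 on the log2 scale, against -0.19 over all genes. *Loxl1*, *Serpinh1* and *Pcolce* were just under the threshold at 0.81, 0.79 and 0.77, and with total counts they passed it at 1.05, 1.03 and 1.01. For this comparison rho with GC content was -0.0726, and with transcript length it was 0.410.

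In WT mice, bleomycin against PBS gave 2 genes at least 2-fold higher, *Lox* and *Plod1*, and 0 at least 2-fold lower, against 5.28% and 8.22% of all genes compared. *Loxl2*, *P4ha2* and *Loxl1* were just under the threshold at log2 ratios of 0.99, 0.97 and 0.92, and the median of the 10 was 0.87, against 0.09 over all genes. In *Hps1-/-* mice the same treatment gave 6 genes at least 2-fold higher, *Loxl1*, *Pcolce*, *Loxl3*, *Loxl2*, *Serpinh1* and *Plod1*, and 0 at least 2-fold lower. Here 26.2% of all genes compared were at least 2-fold higher and 19.6% lower by as much. The median of the 10 was 1.56, against 0.25 over all genes. Total counts lowered every log2 ratio of this comparison by about the same amount, and *Loxl2*, *Plod1* and *Serpinh1* were then under 2-fold at 0.99, 0.91 and 0.92, while *Plod2* stood at -1.24.

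**Figure D2:**
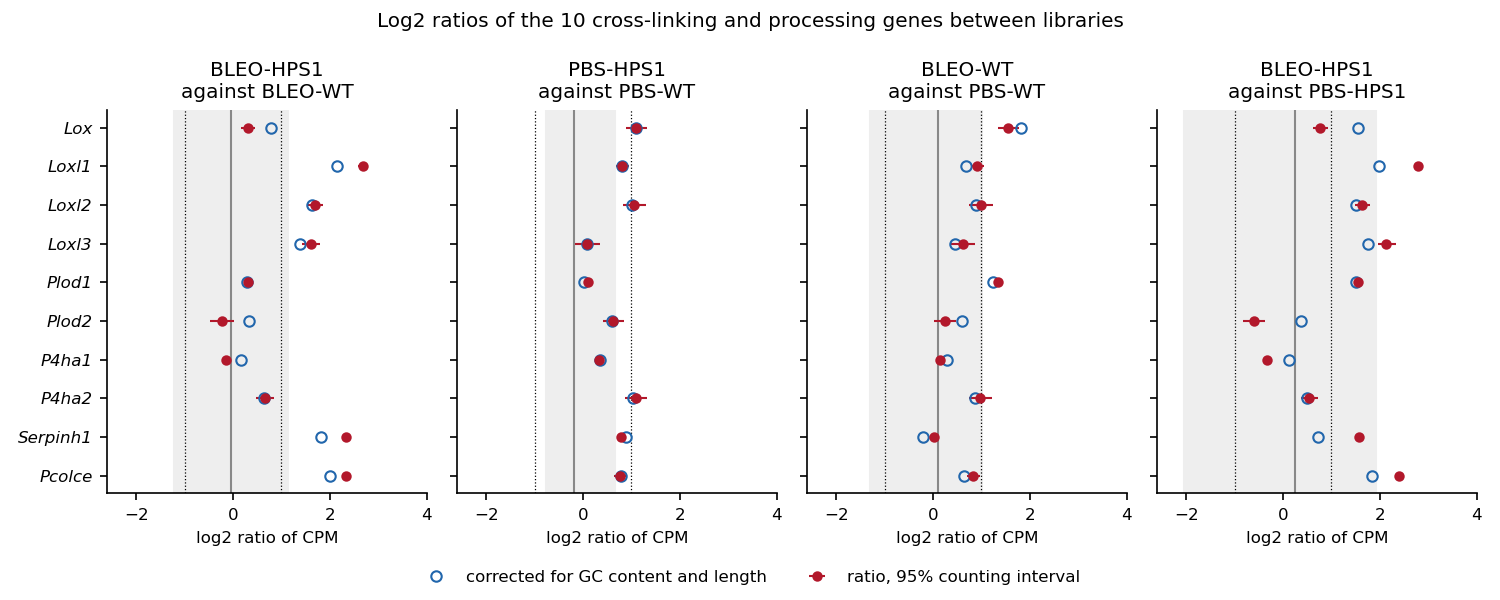
Log2 ratios of CPM (horizontal axis) for the 10 genes in the 4 comparisons. Filled points are ratios with 95% counting intervals, open circles are ratios corrected for GC content and length, dotted lines mark 2-fold, the grey line is the median of all genes compared and the grey band spans their 5th to 95th percentile. In BLEO-HPS1/BLEO-WT the points split into 5 genes at 1.61 to 2.68 and 5 at -0.22 to 0.66.

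The bleomycin ratio exceeded that of WT mice in the *Hps1-/-* libraries for 6 of the 10 genes, with a median difference of 0.43 on the log2 scale, against 0.15 over all genes compared. Since that median over all genes is above 0, most genes compared also had a difference above 0. With total counts the bleomycin ratio was larger in the *Hps1-/-* libraries for 5 of the 10, *Plod1* turning to -0.17, and the median difference of the 10 was 0.050. Total counts also lowered the median bleomycin ratio over all genes compared, from 0.09 to -0.17 in WT and from 0.25 to -0.39 in *Hps1-/-* libraries. With 1 library per group the genotype difference of a gene has no test. It was 1.87 for *Loxl1*, 1.57 for *Pcolce*, 1.54 for *Serpinh1*, 1.52 for *Loxl3*, 0.64 for *Loxl2* and 0.21 for *Plod1*. It was -0.43 for *P4ha2*, -0.49 for *P4ha1*, -0.79 for *Lox* and -0.84 for *Plod2*. The 4 comparisons share libraries, so their values are not independent of each other. By the distance between centred log2 CPM over the 4 libraries, the most alike pairs among the 10 were *Plod2* with *P4ha1* at 0.225, *Loxl1* with *Pcolce* at 0.333 and *Lox* with *P4ha2* at 0.476, and the least alike were *Loxl1* with *Plod2* at 2.89.

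Fibroblast markers moved with some of these genes. Of the 16 fibroblast markers compared, 14 were at least 2-fold higher in BLEO-HPS1/BLEO-WT and 0 were lower by that much, against 6.72% and 10.3% of all genes compared. Their median log2 ratio was 1.66 for BLEO-HPS1/BLEO-WT, 0.77 for PBS-HPS1/PBS-WT, 0.73 for BLEO-WT/PBS-WT and 1.70 for BLEO-HPS1/PBS-HPS1. Set against these medians, the median of the 10 genes differed by -0.52, 0.01, 0.14 and -0.14 in the same order of comparisons. In BLEO-HPS1/BLEO-WT, *Loxl1* was 1.02, *Pcolce* 0.68 and *Serpinh1* 0.67 above the fibroblast median on the log2 scale, *Loxl2* and *Loxl3* were within 0.05 of it, and *P4ha2* at -0.99, *Plod1* at -1.34, *Lox* at -1.35, *P4ha1* at -1.81 and *Plod2* at -1.88 were below it. The part of fibroblast RNA in these ratios was not tested.

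**Figure D3:**
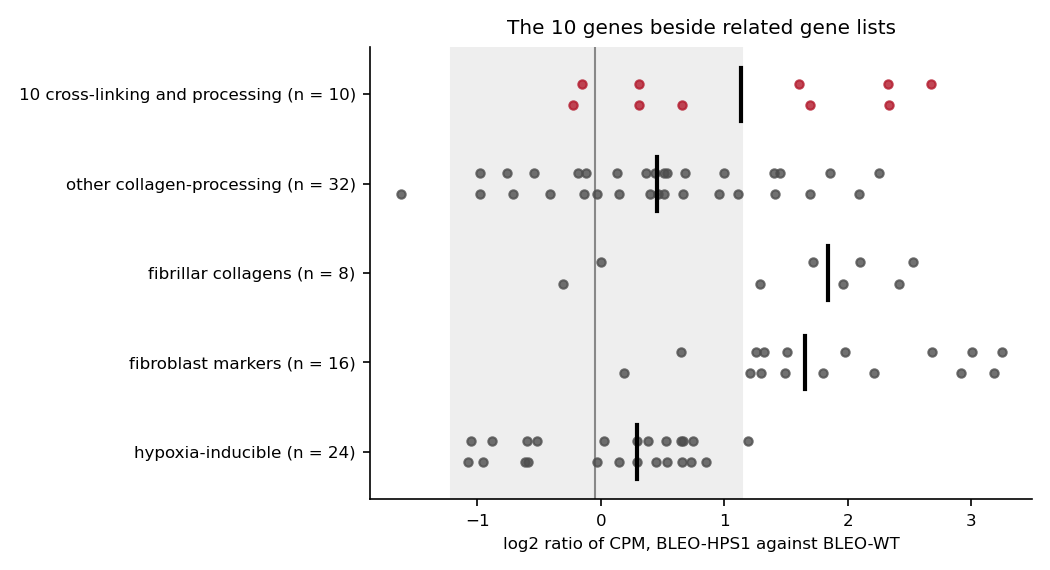
Log2 ratios of CPM for BLEO-HPS1/BLEO-WT (horizontal axis), with 1 point per gene and a black bar at the median of each list. The grey line and band are the median and the 5th to 95th percentile of all genes compared. The 10 genes have a median of 1.13, the other collagen-processing genes 0.45, the fibrillar collagens 1.84, the fibroblast markers 1.66 and the hypoxia-inducible genes 0.29.

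Collagen mRNA, the source of the substrate of these proteins, was higher in BLEO-HPS1/BLEO-WT by a larger factor than the mRNA of 9 of the 10 genes, by a margin near 0 for *Serpinh1* and *Pcolce*. *Col1a1*, *Col1a2* and *Col3a1*, the chains of type I and III collagen, together had 47.1 TPM in PBS-WT and 107 in PBS-HPS1, then 141 in BLEO-WT and 605 in BLEO-HPS1. Per 100 units of this collagen mRNA per length there were 96.4 units of *Serpinh1* mRNA in PBS-WT and 92.7 in PBS-HPS1, then 26.0 in BLEO-WT and 24.97 in BLEO-HPS1. So this ratio for *Serpinh1* was near equal in the genotypes and lower in the bleomycin libraries. *Pcolce* showed the same pattern, with 14.1, 13.4, 6.68 and 6.48 units, and *Loxl1* had 17.1, 16.7, 8.59 and 10.5. *P4ha1* had 104, 73.4, 30.7 and 5.30 units. The *Plod1* values were 72.2, 43.1, 48.7 and 11.6, those of *Lox* 4.38, 5.24, 3.43 and 0.814, and those of *Plod2* 4.56, 3.92, 1.43 and 0.235. Between the bleomycin libraries, the log2 change of a gene relative to collagen mRNA had a median of -1.25 over the 10 genes, ran from -2.61 for *Plod2* to 0.29 for *Loxl1*, and was -0.06 for *Serpinh1* and -0.04 for *Pcolce*. These ratios are taken within a library and do not depend on its scaling, but they do depend on GC content and length. After that correction the BLEO-HPS1/BLEO-WT log2 ratios of *Col1a1*, *Col1a2* and *Col3a1* were 2.24, 2.47 and 2.24, above those of *Loxl1* at 2.14, *Pcolce* at 1.99 and *Serpinh1* at 1.81.

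**Figure D4:**
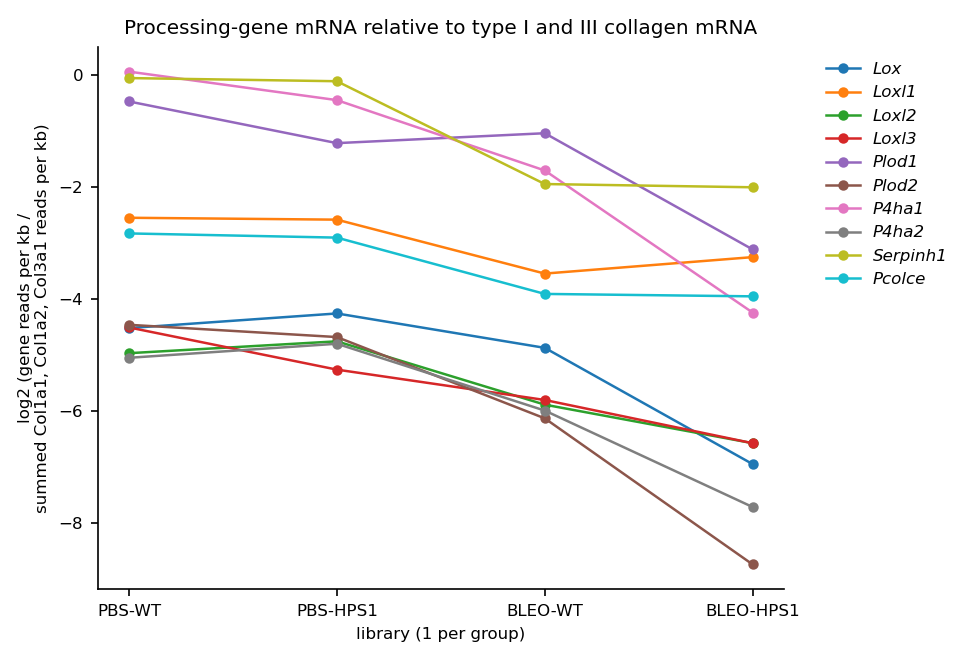
Log2 ratio of each gene's reads per kb to the summed reads per kb of *Col1a1*, *Col1a2* and *Col3a1* (vertical axis) in the 4 libraries (horizontal axis), with lines joining the points of a gene for reading only. *Serpinh1* and *Pcolce* are level between BLEO-WT and BLEO-HPS1, with changes of -0.06 and -0.04, while *Plod2* and *P4ha1* drop by 2.61 and 2.54.

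Within the lysyl oxidase family, with its further member *Loxl4* included, *Loxl1* gave most of the mRNA per length. Its share was 56.8% in PBS-WT and 57.1% in PBS-HPS1, then 53.7% in BLEO-WT and 77.1% in BLEO-HPS1. As a share of the family's reads, with an exact interval, this was 44.2% (42.3% to 46.0%) in BLEO-WT and 69.4% (68.5% to 70.4%) in BLEO-HPS1. Neither kind of share is corrected for GC content. After that correction the BLEO-HPS1/BLEO-WT log2 ratios of *Loxl1* and *Lox* lay closer together, at 2.14 and 0.78, against 2.68 and 0.31 before it. Per length, the share of *Lox* was 14.5%, 17.9%, 21.4% and 5.96% in the 4 libraries, so it was lowest in the library with the most family mRNA, whose summed level without TMM scaling was 82.5 TPM, against 14.2, 31.3 and 22.5 TPM in PBS-WT, PBS-HPS1 and BLEO-WT. The lysyl hydroxylases were led by *Plod3*, an enzyme that also glycosylates collagen and is used well beyond fibroblasts, at 83.8%, 79.1%, 69.0% and 71.1% of the family. *Plod1* made up 15.2%, 19.2%, 30.1% and 28.4%, and the summed level of the family was between 223 and 247 TPM, which is not TMM-scaled. In TMM-scaled CPM the family summed to 339.9, 295, 466 and 609.9, so whether its level differed between libraries depends on the scaling. *P4ha1* was the main prolyl 4-hydroxylase alpha subunit at 90.3% to 96.8%, lowest in BLEO-HPS1, and the share of *P4ha2* was 2.81%, 4.67%, 4.82% and 8.15% in library order. By reads, the *P4ha2* share was 7.16% (6.52% to 7.84%) in BLEO-WT and 11.9% (11.0% to 12.9%) in BLEO-HPS1. The BLEO-HPS1/BLEO-WT log2 ratios of *P4ha2* and *P4ha1* were 0.64 and 0.16 after correction, against 0.66 and -0.15 before it.

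**Figure D5:**
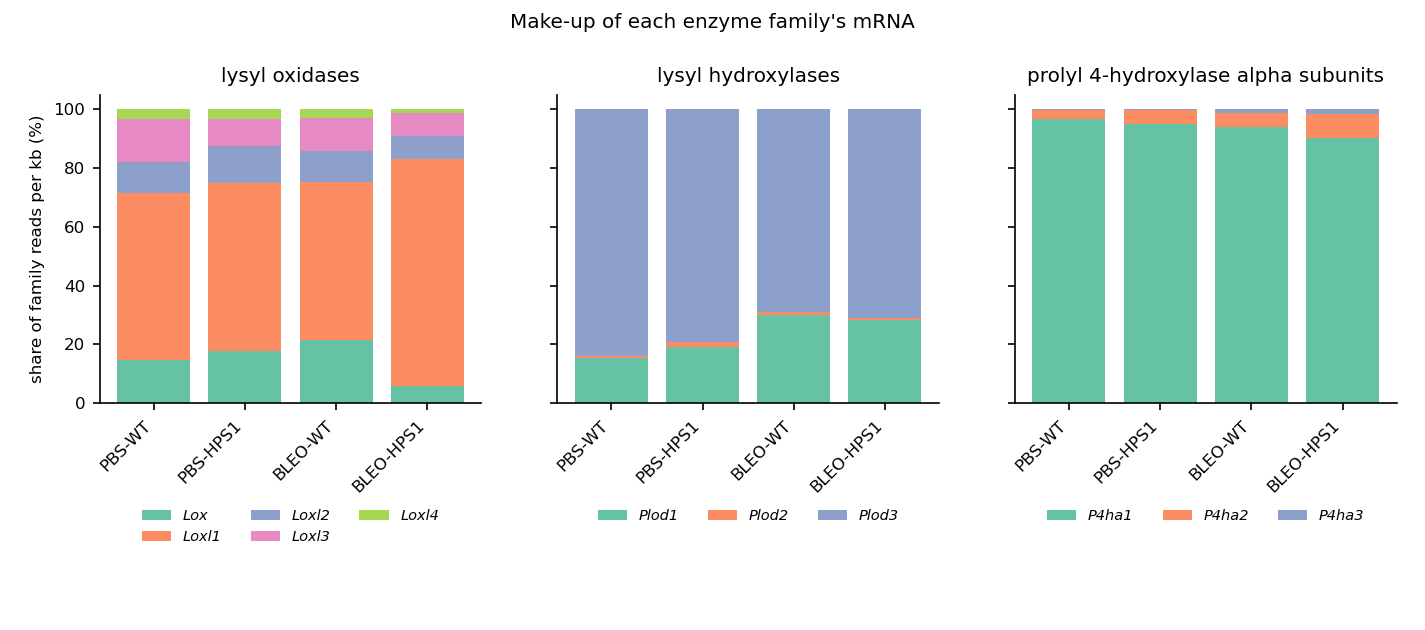
Share of each family's length-normalised reads (vertical axis, %) given by each member in the 4 libraries, not corrected for GC content. In BLEO-HPS1, *Loxl1* makes up 77.1% of the lysyl oxidases, *Plod3* 71.1% of the lysyl hydroxylases and *P4ha1* 90.3% of the prolyl 4-hydroxylase alpha subunits.

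The rest of the pathway was followed with 35 further genes of collagen modification, folding, export and cleavage, of which 32 were compared. In BLEO-HPS1/BLEO-WT, 8 passed 2-fold upwards and 1 downwards, with a median log2 ratio of 0.45. The corresponding counts were 1 and 0 for PBS-HPS1/PBS-WT (median 0.06), 3 and 0 for BLEO-WT/PBS-WT (0.37), and 15 and 5 for BLEO-HPS1/PBS-HPS1 (0.81). Over all genes compared, the shares at least 2-fold higher were 6.72%, 2.16%, 5.28% and 26.2% in the same order of comparisons. The shares lower by as much were 10.3%, 3.11%, 8.22% and 19.6%. Among the genes of procollagen cleavage, 3 of 5 were 2-fold higher in BLEO-HPS1/BLEO-WT. *Adamts2*, the N-proteinase, went from 24.4 to 116 CPM (log2 ratio 2.25), *Bmp1*, the C-proteinase that *Pcolce* enhances, from 10.7 to 38.7 CPM (1.86), and *Pcolce2* from 17.3 to 46.1 CPM (1.41). Of 6 other folding factors 2 were higher, the immunophilin *Fkbp10* at 2.09 and the matricellular collagen binder *Sparc* at 1.70. Among the genes listed with the prolyl 3-hydroxylases, *P3h3* was at 1.45 and *P3h4* at 1.40, while *P3h2* was lower at -1.62. *P3h1*, *Crtap* and *Ppib*, also in that list, stayed under 2-fold at 0.47, 0.67 and 0.68. After correction for GC content and length, *P3h3* was at 0.95, *P3h4* at 0.81 and *Loxl4* at 0.75, so these 3 of the 8 were no longer past 2-fold. The lysyl oxidase *Loxl4* was at 1.12 from 1.10 and 2.41 CPM, and at 0.98 with total counts. None of the 9 genes of procollagen export from the endoplasmic reticulum passed 2-fold, with a median of -0.18 and 2 of the 9 above 0. *Mia3* and *Mia2* were just short of 2-fold lower, both at -0.98, and were at -0.66 and -0.39 after correction. The genes of highest level in their roles that did not pass were *Tgm2* at 0.51, *Ppib* at 0.68, *P4hb* at 0.37, *Sec31a* at 0.15 and *Colgalt1* at 0.13, all of them broadly expressed genes.

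The nearest profiles over the 4 libraries were sought among 10896 genes with a mean CPM of at least 5. Nearest to *Serpinh1* were *Prelp* at a distance of 0.357, *Cavin3* at 0.358, *Kcnj8* at 0.448, *Hba-a2* at 0.451 and *Ltbp4* at 0.460. *Prelp*, a leucine-rich matrix proteoglycan, had 22.1, 36.8, 27.7 and 99.2 CPM in library order, and *Ltbp4*, which binds latent TGF-beta, had 113, 197, 116 and 400.4. *Hba-a2*, a haemoglobin chain, has a near-identical copy, so its counts are uncertain. Nearest to *P4ha1* were *Gpr132* at 0.0485, *Snrnp70* at 0.0602, *Rab11fip3* at 0.0635, *Pdss2* at 0.0642 and *Ccdc84* at 0.0705. All 5 were, like *P4ha1*, highest in PBS-HPS1, and with 4 libraries many genes of small range lie near each other.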

How the data were processed

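Total RNA of ILC2s was extracted with an RNeasy kit and sequenced from SMARTER mRNA-Seq libraries. The authors deposited whole-number read counts for 49315 Ensembl genes in 4 libraries, 1 per group, without normalization. The aligner, counting tool, build and strand setting are not given in the sources used here. GENCODE M21 (GRCm38) gave positions, exon lengths and GC contents for 49056 identifiers, and RefSeq the promoters.

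Counts were scaled with edgeR 4.0.16 TMM factors in R 4.3.3 (0.816 to 1.27). Library ratios were taken on log2 CPM (prior count 2) for the 14840 genes with at least 1 CPM in at least 1 library. A gene was called at a 2-fold difference. Without replicates no test was possible, and the spread between mice is unknown. Exact Clopper-Pearson intervals (95%, SciPy 1.17.1) and the 3-read floor hold counting error alone. The intervals treat each read as independent, which PCR copies are not, so they can be too narrow. TPM used the summed exon length. The steps were tested on simulated data.

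Named were the 10 genes, type I and III collagen chains, *Hps1*, from the other collagen-processing genes the most abundant of each role and those past 2-fold in BLEO-HPS1/BLEO-WT, and the 5 nearest profiles of *Serpinh1* and *P4ha1*. *Htra2*, for its overlap, *Plod3*, for its family, *P3h1*, *Crtap*, *Mia2* and *Mia3*, for their roles, and single ILC2 markers were named after their values were seen. The genes and lists were chosen with earlier results of these data known. Alternatives were total counts, DESeq2 1.42.0 size factors, prior counts of 0.5 and 10, no filter, a log2 threshold of 2, at least 10 counts in all libraries, a loess fit on GC content and length (span 0.3), fibroblast markers with at least 10 counts and all fibrillar chains as collagen reference.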

Additional observations from a re-analysis of the deposited data

Results flagged for a closer look

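*Plod2* and *P4ha1* stood out because bleomycin and PBS libraries differed in opposite directions in the genotypes. Bleomycin over PBS gave a log2 ratio of 0.24 in WT and -0.60 in *Hps1-/-* mice for *Plod2*, a difference of -0.84, and 0.15 and -0.34 for *P4ha1*, a difference of -0.49. With 1 library per group these differences were not tested. The opposite directions were lost with total counts, where the WT ratios were -0.02 and -0.12, and after correction for GC content and length, where the *Hps1-/-* ratios were 0.37 and 0.12. The difference itself remained below 0 in both settings, at -1.22 and -0.86 with total counts and at -0.22 and -0.17 after correction.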

How the results depend on the processing

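Total counts in place of TMM factors moved the median over the 10 genes to 1.001 for BLEO-HPS1/BLEO-WT, 1.02 for PBS-HPS1/PBS-WT, 0.61 for BLEO-WT/PBS-WT and 0.92 for BLEO-HPS1/PBS-HPS1, as they moved the median of all genes to -0.17, 0.05, -0.17 and -0.39. The genes at least 2-fold higher were then 6 for PBS-HPS1/PBS-WT and 3 for BLEO-HPS1/PBS-HPS1, where 1 was at least 2-fold lower, and the median genotype difference was 0.050. The loess correction moved the median of BLEO-WT/PBS-WT to 0.66. A log2 threshold of 2 left 3, 0, 0 and 3 genes in the order above. With total counts, higher genes made up 26.1%, 65.9%, 20.1% and 21.9% of all calls, against 39.5%, 41.0%, 39.1% and 57.2% with TMM. With the correction the shares were 53.8%, 44.8%, 48.6% and 67.3%. Of 200 single-gene alternatives 139 stayed within counting error and 61 moved. The alternatives with either prior count changed the ratios very little and all stayed within counting error, so they are no test of stability. The 61 came mostly from total counts and the loess correction, and a few from DESeq2 size factors. *Plod2*, *P4ha1*, *P4ha2* and *Serpinh1* changed sign in 8 gene and comparison pairs in all. The widest was *Plod2* in BLEO-HPS1/PBS-HPS1, at -0.60 as reported, -1.24 with total counts and 0.37 after correction. The counts of genes at least 2-fold higher were 5, 3, 2 and 6 with DESeq2 size factors, with either prior count and with the correction, but after correction the 6 of BLEO-HPS1/PBS-HPS1 held *Lox* (1.55) in place of *Serpinh1* (0.73). No library could be left out and no paired analysis was possible, since each group had 1 library. The spread between mice, which depth cannot replace, limits every comparison.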
